A study of Homo sapiens with 4 samples.

Results

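The genes described here build cholesterol and fatty acids, sense sterol, or export it from the cell. They are 35 genes on a fixed list, taken as the non-control probes whose gene name on the array is on that list (SC4MOL is the older name of MSMO1, SC5DL of SC5D), and they are represented by 43 of the 34127 non-control probes. The list holds 18 enzymes of sterol synthesis, 6 genes of the sensing machinery and sterol transport, 7 genes of fatty acid synthesis and desaturation, and 4 genes of the LXR arm. THP1, the human monoblastic AML cell line in which they were measured, carries the fusion gene MLL-AF9. In the study, miR-511 was raised in these cells by transfecting a mimic, a synthetic double-stranded RNA that delivers the mature miRNA, and transcripts were profiled on single-dye Agilent whole genome arrays. One group of 2 arrays came from cells given 30 nM miR-511-5p mimic. The other group of 2 arrays came from cells given 30 nM negative control #1 mimic, and each of the 2 independent experiments gave 1 array of each group. All cells were transfected once, were kept in medium with low serum, and gave their RNA on day 2. The control is a mimic too, so every array comes from transfected cells, and none from untreated ones. THP1 is 1 line, and nothing beyond the experiment number tells how far the repeats were separate, so the p-values measure the spread between these 4 arrays.

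Sterol synthesis runs from acetyl-CoA through mevalonate, the isoprenoids and squalene to lanosterol and cholesterol. When sterol in the endoplasmic reticulum is low, the carrier SCAP brings the membrane-bound factors SREBP1 and SREBP2, made from SREBF1 and SREBF2, to the Golgi, where they are cut and released to switch on the synthesis enzymes, while INSIG1 and INSIG2 hold SCAP back when sterol is plentiful. LXR, a nuclear receptor for oxysterols encoded by NR1H3 and NR1H2, works in the opposite situation and turns on the efflux pumps ABCA1 and ABCG1 and the ubiquitin ligase MYLIP, which limits lipoprotein uptake. LXR also turns on SREBF1, SCD and FASN, genes that answer to SREBP as well. In macrophages and monocytes this balance is known for governing lipid loading.

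The mature miRNA is shown because its mimic is the treatment, and a few promoter stretches because they hold the letters searched for. Sequences and positions are those of RefSeq on GRCh38.p14. The mature miRNA, with its seed (bases 2 to 8) in capitals, lies at chr10:17845122-17845142 on the plus strand.
hsa-miR-511-5p: gUGUCUUUugcucugcaguca
Windows from 250 bases before to 50 bases after each transcript start were matched by symbol for 30 of the 35 members. ACAT2, FDFT1, SQLE, FASN and ABCG1 had no entry. A sterol response element written as TCACNCCAC, searched on both strands, was found in 1 of the 30 members, SREBF2, and in 1.39% of the 27305 genes in the table. The stretch around it, at position -133 from the start, is chr22:41832932-41833020 on the plus strand, with the element in capitals.
SREBF2: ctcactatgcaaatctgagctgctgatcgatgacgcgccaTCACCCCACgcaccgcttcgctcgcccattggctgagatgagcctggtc
The CCAAT box, known as the site of NF-Y, a partner of SREBP, was found in 22 of the 30 members and in 39.7% of all genes, read on either strand as CCAAT or ATTGG. It did not overlap the sterol element in SREBF2, where it begins at position -106. No such box was found for ABCA1, SREBF1 and FADS1, which are among the genes with large differences between experiments below. The direct repeat DR4, the textbook LXR element, searched as a pair of AGGTCA half-sites in the same direction with 4 bases between them, was in 0 of the 30 members and in 0.0256% of all genes, and a missing match says only that these letters are not in the window. The boxes of 3 SREBP targets with large values below and of 1 LXR target are given in capitals, at chr21:46228880-46228964 (minus) for LSS, chr11:71448443-71448527 (minus) for DHCR7, chr7:155297668-155297752 (plus) for INSIG1 and chr6:16128937-16129021 (plus) for MYLIP. DHCR7 and MYLIP hold 2 such boxes each, and the one farther from the start is shown.
LSS: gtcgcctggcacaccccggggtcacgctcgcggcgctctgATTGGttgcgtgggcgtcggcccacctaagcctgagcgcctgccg
DHCR7: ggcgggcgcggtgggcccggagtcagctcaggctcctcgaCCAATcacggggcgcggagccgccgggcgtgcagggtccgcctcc
INSIG1: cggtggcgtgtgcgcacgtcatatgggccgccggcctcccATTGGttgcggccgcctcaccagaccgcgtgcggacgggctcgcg
MYLIP: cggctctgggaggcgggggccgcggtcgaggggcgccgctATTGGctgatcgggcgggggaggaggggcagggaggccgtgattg
These matches are descriptions of the letters, with no claim that a factor sits there.

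Depending on the array, 64.8% to 69.3% of non-control probes gave a signal well above background, and saturation was found on 0 spots. The 9 myeloid marker genes found on the array were above background on all 4 arrays, among them CD33, SPI1 and MPO. Of 14 markers of other cell types, ALB, COL1A1, COL3A1, EPCAM and MS4A1 were above background on none. All arrays were on 1 slide, with experiment 1 at positions 1 and 2 and experiment 2 at positions 3 and 4, so slide position and experiment cannot be told apart. Of the members' 43 probes, 40 were above background on all 4 arrays. ELOVL6, which lengthens fatty acids, was the 1 gene with no tested probe: its probes were above background on 2 arrays and on none. That left 34 genes. A gene with several probes is given by the brightest, and levels are quantile-normalized log2 intensities, which are compared only within a probe.

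The first comparison asks how the members' transcripts differed on day 2 between miR-511 and control mimic. None of the 40 tested member probes had an unadjusted p below 0.05 in the moderated test of limma, while 2.20% of all 22638 tested probes did. A plain equal-variance test of each probe also called 0 of the 40, beside 3.13% of all tested probes. After Benjamini-Hochberg adjustment over all tested probes, every member had an adjusted p of 1.00. By its brightest probe, no member gene had its 2 miR-511 arrays on 1 side of both control arrays. Of all tested probes, 25.7% did. Both arrays of experiment 2 lay below both of experiment 1 in 30 of the 34 genes and above in 1. Such a gap leaves no room for that split between treatments, so the count of 0 says little about the treatment. The second probes of INSIG2 and SREBF1 had both miR-511 arrays above both control arrays. The median log2 difference (miR-511 minus control mimic) over the 34 genes was 0.048, with 23 above and 11 below 0, and the median over all tested probes was 0.0098. In 25 of the 34 genes the difference was under 0.1 in size. With the experiment as a block, which takes the gap between experiments out of the error, 0 of the 40 member probes passed the unadjusted threshold as well. Of all tested probes 3.95% did, a share at which few calls among 40 probes would be made.

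The sterol synthesis enzymes lay around 0, with a median log2 difference between treatments of -0.0014 and 9 of 18 above 0. The most negative was HSD17B7, which reduces a sterol ketone late in the pathway. Its level was 10.79 with control and 10.25 with miR-511 mimic in experiment 1, and 10.47 and 10.48 in experiment 2. The difference was -0.27 (standard error 0.16, or 0.18 with the experiment as a block). It was seen in experiment 1, since the levels of experiment 2 nearly coincided. This probe lists the pseudogene HSD17B7P2 beside HSD17B7, so the signal of the 2 cannot be separated on it, and the other 2 HSD17B7 probes differed by -0.025 and 0.0029. MVD, which makes isopentenyl diphosphate, had 10.70 (control) and 10.90 (miR-511) in experiment 1 and 10.74 and 10.17 in experiment 2. Its difference of -0.18 (standard error 0.27, or 0.24 with the block) rests on the miR-511 array of experiment 2, the lowest of the 4.

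The 6 tested fatty acid genes all lay above 0 with miR-511 mimic, with a median log2 difference of 0.092, and none passed the test. ACACA, the carboxylase that commits acetyl-CoA to fatty acids, had the largest of these values. Its level was 12.75 and 13.00 in experiment 1 and 12.26 and 12.39 in experiment 2, control before miR-511. The difference of 0.19 (standard error 0.28, or 0.086 with the block) was positive in both experiments, while the second ACACA probe had -0.10. The machinery genes had a median of 0.048, with 4 of 6 above 0.

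The 4 genes of the LXR arm also lay above 0, with a median log2 difference of 0.145. ABCA1, the pump that loads cholesterol and phospholipid onto apolipoprotein A-I, had the largest value of the 34 genes, a rank it did not hold with normexp background correction (0.17, beside -0.26 for HSD17B7 and 0.21 for ACACA). Its probe at chromosome 9, 107543704 to 107543763 of hg19, read 5.78 with control and 6.50 with miR-511 mimic in experiment 1, and 4.34 and 4.31 in experiment 2. The difference was 0.35, with a standard error of 0.92, or of 0.23 with the experiment as a block. It came from experiment 1, with 0.72 there against -0.02 in experiment 2. MYLIP read 10.92 and 11.21 in experiment 1 and 10.38 and 10.47 in experiment 2, control before miR-511. Its difference was 0.19 (standard error 0.33, or 0.097 with the block). MYLIP, ABCG1 and NR1H3 were each higher with miR-511 mimic in both experiments. ABCG1, the pump for export to HDL, differed by 0.09 (standard error 0.15, or 0.078 with the block). NR1H3 differed by 0.10 (standard error 0.12, or 0.089 with the block).

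Over the members, the sign of the treatment difference was the same in both experiments for 17 of 34 genes, beside 51.0% of all tested probes. With 1 array per treatment in each experiment, the difference between these 2 effects has no error of its own and was not tested.

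**Figure D1:**
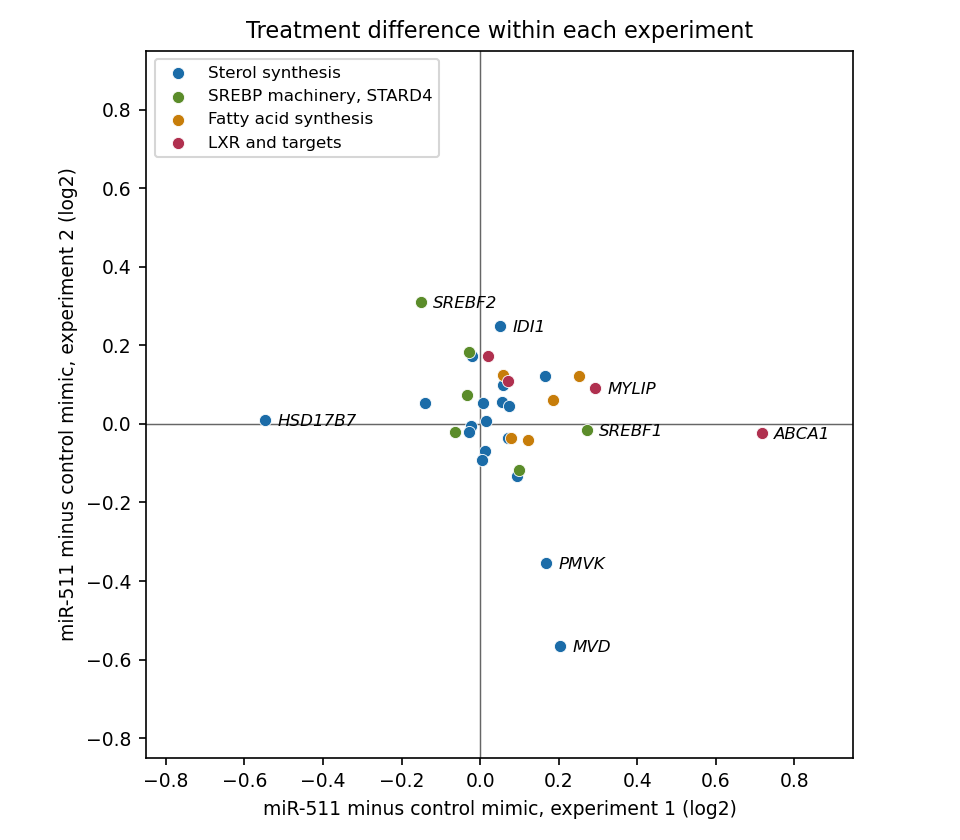
Log2 difference of miR-511 minus control mimic in experiment 1 (horizontal) against experiment 2 (vertical), 1 point per tested gene, coloured by role. Most points lie near 0 on both axes, and ABCA1 (0.72 and -0.02), HSD17B7 (-0.55 and 0.01) and MVD (0.20 and -0.56) lie far out on 1 axis or with opposite signs.

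The second comparison, between the repeats, sets experiment 2 against experiment 1. Here all calls among the members were in 1 direction. Of 41 tested member probes, 31 were lower in experiment 2 at an unadjusted limma p below 0.05 and 0 were higher, beside 8.46% of all 22596 tested probes that were lower and 5.66% that were higher. Of the 31, 1 is the second ABCA1 probe, which entered the test only through experiment 1, where it is bright. Over the 40 member probes above background on all 4 arrays the count is 30, beside 8.36% of the 21609 such probes. As genes, each above background on all 4 arrays, this is 27 of 34, with log2 differences from -0.22 to -1.82. Adjusted p-values in the following are those of limma after Benjamini-Hochberg adjustment, and genes said to have fallen are those past the unadjusted threshold. The median over the 34 genes was -0.345, which is 1.27-fold lower, and the median over all tested probes was -0.010. Both arrays of experiment 2 lay below both of experiment 1 in 30 of 34 genes, beside 26.8% of all tested probes. No member passed Benjamini-Hochberg adjustment over all tested probes, with a smallest adjusted p of 0.169 among members and 0.0632 among all. With the treatment as a block, 24 of the 27 genes passed the unadjusted threshold, and EBP, MVK and NSDHL did not. In that setting 7.01% of all tested probes were called lower. A lower level here can stand for less RNA per cell or for fewer cells of a kind, which bulk RNA cannot tell apart.

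The fall was present within each treatment. From the control mimic of experiment 1 to that of experiment 2, 31 of 34 genes were lower (median -0.323). From miR-511 mimic to miR-511 mimic, 32 of 34 were lower (median -0.356), and 30 genes were lower in both. The mean log2 level of the 9 myeloid markers was 13.83 and 13.86 in experiment 1 and 13.71 and 13.70 in experiment 2 (control, miR-511). By the brightest probe, 3 were lower in experiment 2 past the unadjusted threshold (PTPRC, CSF1R and CD68), beside 8.46% of all tested probes. Differences ran from -0.298 to 0.122 over the 9. The other PTPRC probes differed by -0.030 to -0.208 and did not pass. The 8 markers of other cell types above background on all arrays had mean levels of 7.08 and 7.12 in experiment 1 and 6.98 and 7.11 in experiment 2. Of these, KRT18, a keratin of epithelia, was lower by a log2 difference of -0.34, and CD3D, a chain of the T cell receptor complex, was higher by 0.21, both past the unadjusted threshold. The part of these shifts and of slide position in the members' fall was not tested.

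**Figure D2:**
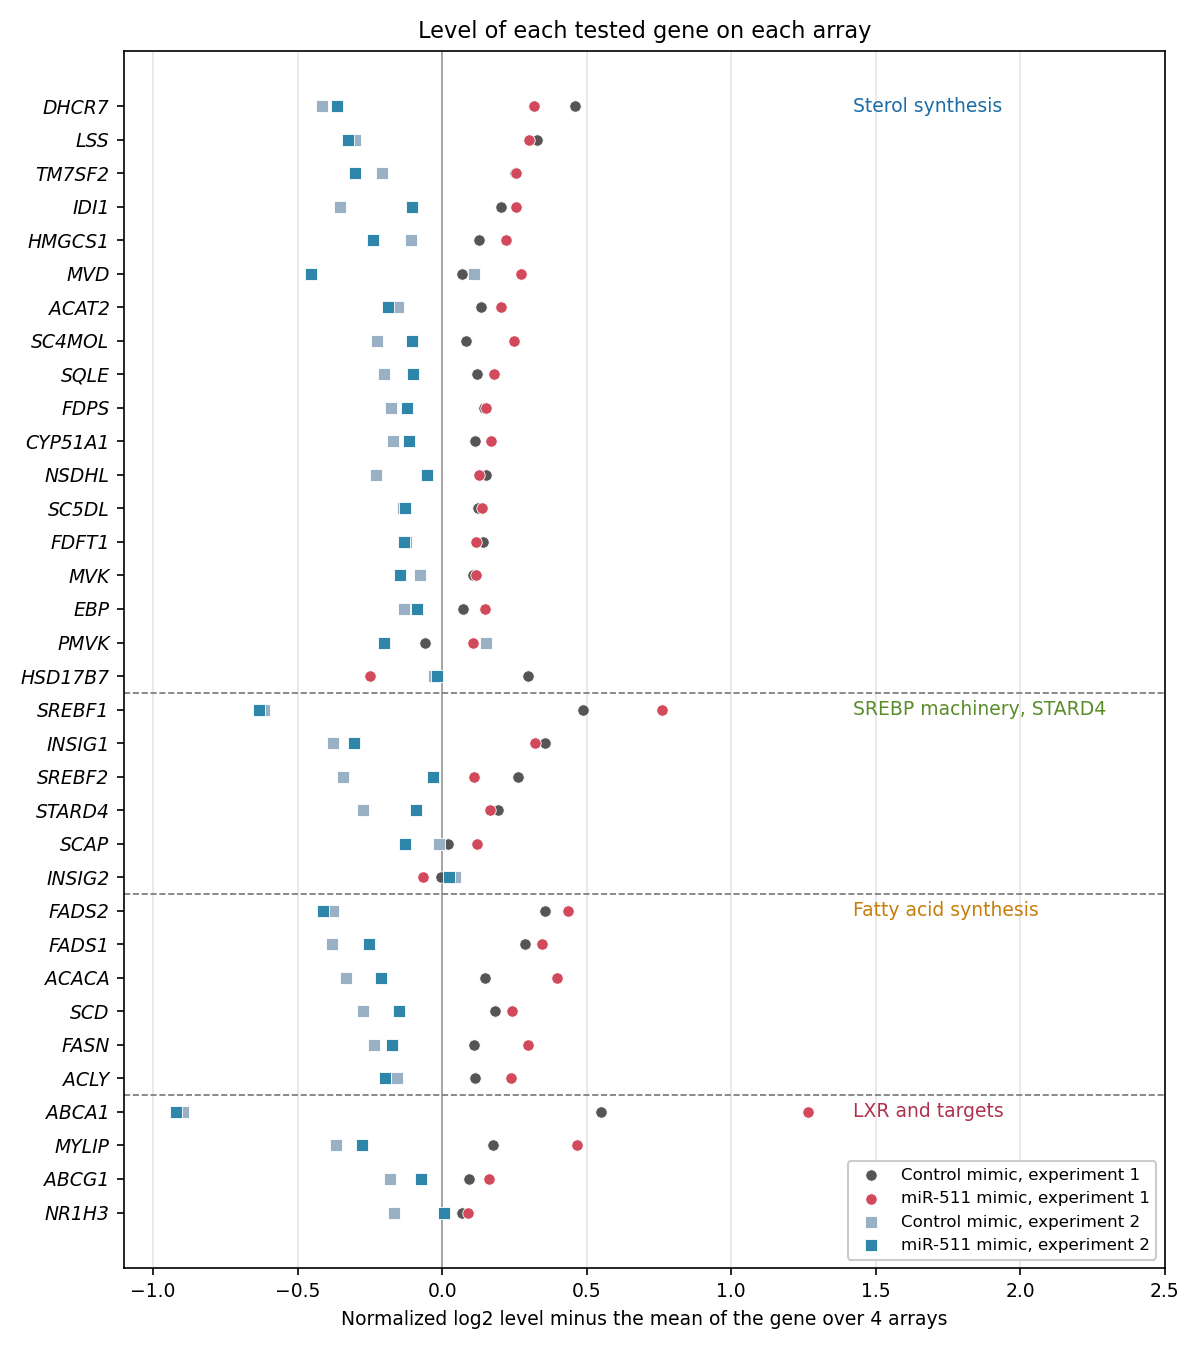
Level of each tested gene on each array as normalized log2 intensity minus the mean of that gene over the 4 arrays, by role and, within a role, by the size of the difference between experiments. Circles (experiment 1) lie to the right of squares (experiment 2) in 30 of 34 genes, and control and miR-511 mimic of 1 experiment mostly lie side by side.

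In sterol synthesis, 15 of 18 enzymes fell, with a median of -0.298. Levels below are given as control then miR-511 mimic. The early steps join acetyl-CoA into HMG-CoA. ACAT2, the cytosolic thiolase, went from 15.17 and 15.24 in experiment 1 to 14.88 and 14.85 in experiment 2, by -0.34 (standard error 0.071, adjusted p = 0.239). HMGCS1, the synthase of HMG-CoA, went from 12.88 and 12.97 to 12.64 and 12.51, by -0.35 (standard error 0.087, adjusted p = 0.274). In both genes the 2 experiments did not overlap. Next come the kinases and the decarboxylase that turn mevalonate into isoprenoid units. Among these, MVK fell by 0.22 from 13.94 and 13.95 to 13.75 and 13.68 (standard error 0.070, adjusted p = 0.325). PMVK (-0.05, adjusted p = 0.900) and MVD (-0.34, adjusted p = 0.533) did not pass the test, and their control mimic was higher in experiment 2 while their miR-511 mimic was lower.

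The isoprenoid and squalene steps followed. IDI1, which interconverts the 2 isoprenoid units, went from 13.07 and 13.12 to 12.51 and 12.76, by -0.46 (standard error 0.11, adjusted p = 0.267). FDPS, which makes farnesyl diphosphate, went from 16.18 and 16.19 to 15.86 and 15.91, by -0.30 (standard error 0.069, adjusted p = 0.261). FDFT1, the squalene synthase, had nearly equal arrays within each experiment, 14.31 and 14.29 against 14.04 and 14.04, a difference of -0.26 (standard error 0.066, adjusted p = 0.281). SQLE, the epoxidase that follows, went from 13.25 and 13.31 to 12.94 and 13.04, by -0.30 (standard error 0.078, adjusted p = 0.282). LSS, which closes the rings to lanosterol and whose promoter box is shown above, was among the enzymes with the largest fall. It read 13.09 and 13.07 in experiment 1 and 12.46 and 12.44 in experiment 2, a difference of -0.63 (standard error 0.067, adjusted p = 0.169). A second LSS probe differed by -0.74 (adjusted p = 0.169).

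The enzymes that trim lanosterol to cholesterol fell too, with the exception of the brightest HSD17B7 probe. DHCR7, the reductase of the last step in one branch, had the largest value of the 18. Its probe at chromosome 11, 71145514 to 71145573 of hg19, went from 14.10 and 13.96 to 13.23 and 13.28, by -0.78 (standard error 0.084, adjusted p = 0.171), which is 1.71-fold. TM7SF2, a sterol reductase, went from 9.86 and 9.86 to 9.40 and 9.31, by -0.51 (standard error 0.073, adjusted p = 0.193). The demethylation enzymes moved less. CYP51A1 went from 13.54 and 13.59 to 13.25 and 13.31, by -0.28 (standard error 0.071, adjusted p = 0.274). SC4MOL went from 8.78 and 8.95 to 8.47 and 8.59, by -0.33 (standard error 0.098, adjusted p = 0.313). NSDHL went from 13.77 and 13.75 to 13.39 and 13.56, by -0.28 (standard error 0.091, adjusted p = 0.330).

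Of the remaining late enzymes, EBP shifts a double bond of the sterol ring and SC5DL introduces one. EBP went from 15.21 and 15.29 to 15.01 and 15.05, by -0.22 (standard error 0.072, adjusted p = 0.332). SC5DL went from 7.49 and 7.50 to 7.23 and 7.24, by -0.26 (standard error 0.066, adjusted p = 0.275). The brightest HSD17B7 probe had -0.05 (adjusted p = 0.933) with overlapping experiments. Its other 2 probes passed the test, with -0.23 (adjusted p = 0.345) and -0.26 (adjusted p = 0.304), so the probes of this gene disagree. With the treatment as a block neither of these 2 probes passed. Of the 3 probes, 2 also list the pseudogene.

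In the sensing machinery and transport group, 3 of 6 genes fell, with a median of -0.368. SREBF1, which is an LXR target as well, had the largest value. Its probe at chromosome 17, 17715419 to 17715478 of hg19, went from 12.92 and 13.19 in experiment 1 to 11.81 and 11.79 in experiment 2, by -1.25 (standard error 0.12, adjusted p = 0.169), a 2.38-fold drop. A second SREBF1 probe, with coordinates close by at 17715304 to 17715363, read 7.99 and 8.26 against 8.06 and 8.06 and differed by -0.06 (adjusted p = 0.824). The 2 probes of SREBF1 therefore disagree, and the fall rests on the brighter one. INSIG1, a target of SREBP that anchors SCAP, went from 13.88 and 13.85 to 13.15 and 13.22, by -0.68 (standard error 0.072, adjusted p = 0.169). STARD4, a carrier that moves cholesterol between membranes, went from 9.25 and 9.22 to 8.78 and 8.96, by -0.36 (standard error 0.093, adjusted p = 0.278). The remaining machinery genes did not pass the test. SREBF2 differed by -0.37 (adjusted p = 0.366), SCAP by -0.14 (adjusted p = 0.518) and INSIG2, the single gene above 0, by 0.07 (adjusted p = 0.668), with -0.0020 on its second probe.

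In fatty acid synthesis and desaturation, 6 of the 6 tested genes fell, with a median of -0.486. FADS2, a desaturase of polyunsaturated fatty acids, led with 14.00 and 14.08 in experiment 1 and 13.26 and 13.23 in experiment 2. The difference was -0.79 (standard error 0.073, adjusted p = 0.169), the smallest unadjusted p of the 34 genes. FADS1, the partner desaturase, went from 13.18 and 13.24 to 12.51 and 12.64, by -0.63 (standard error 0.082, adjusted p = 0.187). ACACA went from 12.75 and 13.00 to 12.26 and 12.39, by -0.55 (standard error 0.12, adjusted p = 0.242), and its second probe, at -0.26 (adjusted p = 0.399), did not pass. SCD, which makes monounsaturated fatty acids and is shared with LXR, went from 11.64 and 11.70 to 11.18 and 11.31, by -0.42 (standard error 0.082, adjusted p = 0.224). FASN, the synthase of palmitate and shared too, went from 14.48 and 14.67 to 14.14 and 14.20, by -0.41 (standard error 0.095, adjusted p = 0.265). ACLY, which supplies cytosolic acetyl-CoA to both pathways, went from 12.37 and 12.50 to 12.10 and 12.06, by -0.35 (standard error 0.080, adjusted p = 0.259).

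In the LXR arm, 3 of 4 genes fell, with a median of -0.449. ABCA1 had the largest difference of the 34 genes on the deposited processed intensities. The levels given above, 5.78 and 6.50 in experiment 1 against 4.34 and 4.31 in experiment 2, differ by -1.82 (standard error 0.26, adjusted p = 0.194), a 3.53-fold drop. With normexp background correction its difference was -0.69, smaller than those of SREBF1 (-1.25), FADS2 (-0.81) and DHCR7 (-0.72) under the same correction. A second ABCA1 probe was well above background on both arrays of experiment 1 and on neither of experiment 2, so that only a bound of at least 1.30-fold lower can be given. MYLIP, with 10.92 and 11.21 against 10.38 and 10.47, fell by 0.64 (standard error 0.13, adjusted p = 0.229). ABCG1 went from 4.38 and 4.45 to 4.11 and 4.22, by -0.25 (standard error 0.080, adjusted p = 0.326). The count of 3 rests on ABCG1, whose call was lost with normexp (-0.086), the intensity trend, the plain t-test and each left-out array. NR1H3, the receptor itself, went from 10.18 and 10.20 to 9.95 and 10.12 and did not pass the test (-0.16, standard error 0.090, adjusted p = 0.491).

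The counts depended on single arrays. Whichever array was left out, fewer than 31 member probes were called. The share of all tested probes called lower was smaller in each of these settings as well. Such a fit has 1 array on 1 side, so its counts are not given. Of the 27 genes, 18 lost their call under at least 1 alternative, and ABCG1, EBP, FDFT1, MVK and SC5DL lost it whichever array was left out. The other 9, judged by their brightest probe, did not lose it: ABCA1, SREBF1, INSIG1, DHCR7, LSS, TM7SF2, FADS1, FADS2 and SCD. With all probes in place of the brightest, SREBF1 is split, since its second probe did not pass (-0.06, limma adjusted p = 0.824).

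**Figure D3:**
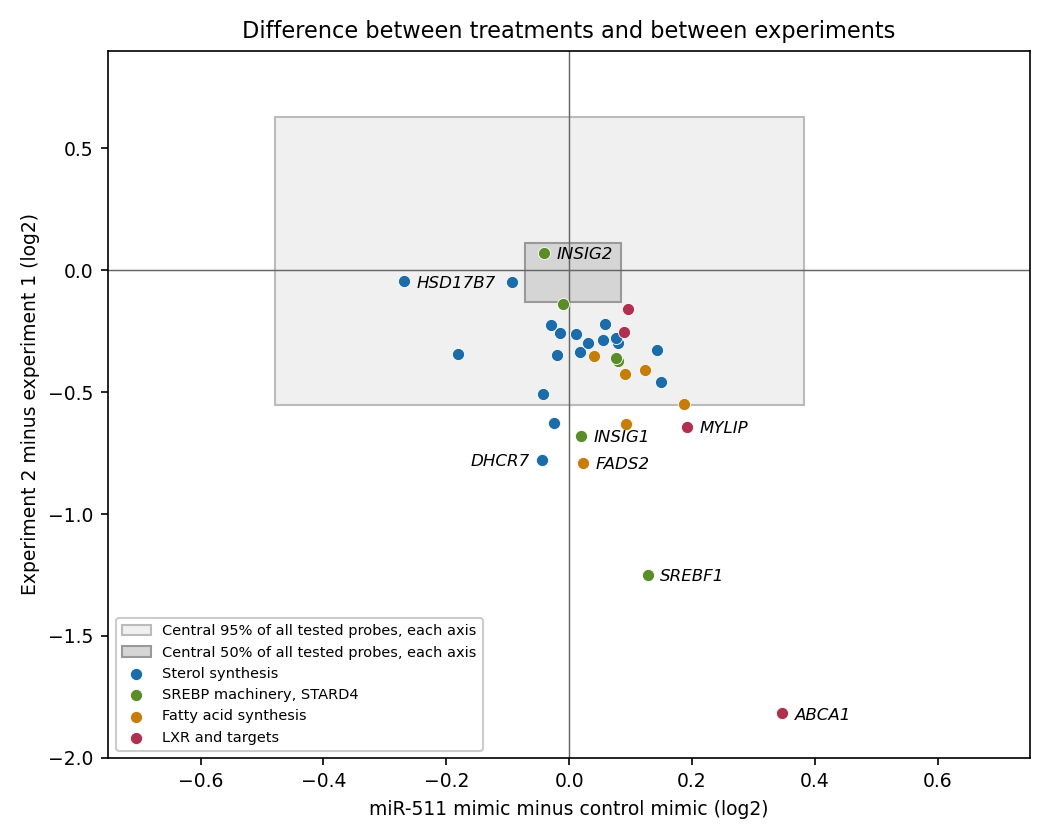
Log2 difference between treatments (horizontal) and between experiments (vertical) for each tested gene, coloured by role, with boxes for the central 50% and 95% of all tested probes on each axis. The genes lie near 0 horizontally and below 0 vertically, with ABCA1 (-1.82) and SREBF1 (-1.25) lowest and INSIG2 (0.07) alone above 0.

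Setting SREBP against LXR targets, both arms moved the same way between experiments. Of 26 tested SREBP targets (the synthesis and fatty acid enzymes, INSIG1 and STARD4), 23 fell, with a median of -0.345 and a range from -0.79 to -0.05. Of the 4 genes of the LXR arm, 3 fell, and of the 7 LXR targets that take in SREBF1, SCD and FASN, 6 fell, with a median of -0.424 and a range from -1.82 to -0.16. SREBF1 (-1.25), which answers to both, was counted with the LXR targets and not among the 26. Between treatments, the median was 0.026 for the SREBP targets (17 of 26 above 0) and 0.123 for the 7 LXR targets (7 of 7 above 0), with 0 called in either set. Whether the arms differ in size was not tested, since the sets were chosen with results known and share genes.

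**Figure D4:**
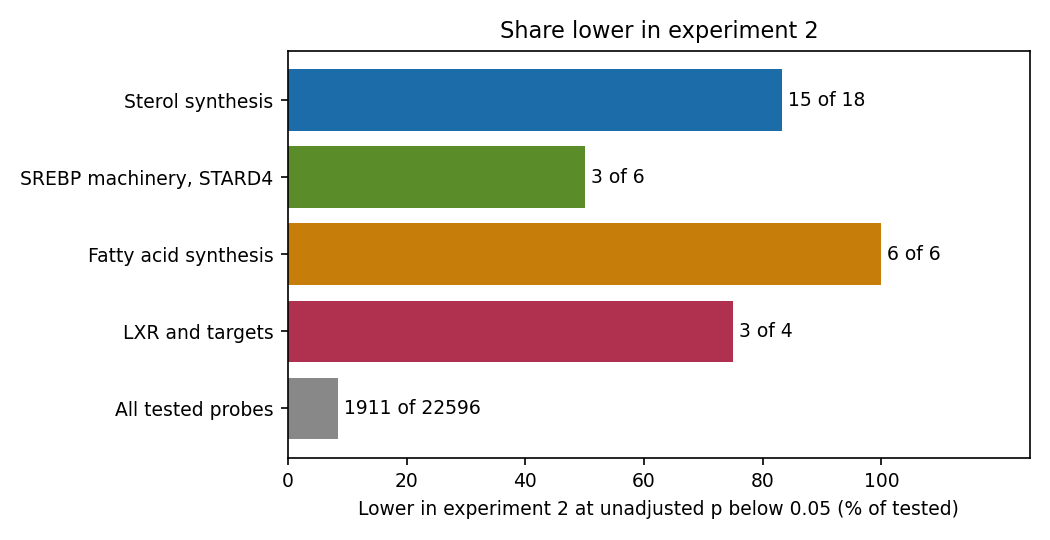
Percentage of tested genes lower in experiment 2 at an unadjusted limma p below 0.05, by role, with the count beside each bar, and for all tested probes. The 4 member groups reach from 3 of 6 to 6 of 6, beside 1911 of 22596 of all probes.

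A further 17 genes of the same pathways, outside the list, were looked at in the same way. They are not the whole of the wider pathway list, so their counts are no comparison with the members. Between experiments 3 of 17 fell and 0 rose, with a median log2 difference of -0.143 and 14 of 17 below 0. LPCAT3, an LXR target that remodels phospholipids, fell from 13.11 and 13.22 to 12.53 and 12.62, a difference of -0.59 (standard error 0.084, adjusted p = 0.193). The others that fell were ACSS2 (-0.38, adjusted p = 0.275), which makes acetyl-CoA from acetate, and NPC1 (-0.24, adjusted p = 0.340), which exports lysosomal cholesterol and did not pass with the treatment as a block. NR1H2, which encodes the other LXR, had 0.01 (adjusted p = 0.979), and the proteases MBTPS1 and MBTPS2, which release SREBP, had -0.12 and 0.06. PLTP did not pass (-0.30, adjusted p = 0.595). It was lower in experiment 2 with control mimic (-0.67) and higher with miR-511 mimic (0.08). Between treatments 0 of these 17 passed the test, with a median of -0.010 and the lowest value, -0.23, for PLTP.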

How the data were processed

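Total RNA of THP1 cells was profiled on 4 Agilent arrays. The authors deposited scanner output with a background-corrected intensity per spot, and a quantile-normalized table of log2 values. The submitters' processing notes name Feature Extraction 10.5.1.1 and limma, and the file headers name 10.7.3.1. Here, log2 processed intensities were quantile normalized without spots marked as outliers (232 to 301 per array) and averaged per probe. Probes had to be well above background on both arrays of 1 group or the other (over 50% of spots where printed several times) and were tested with limma 3.58.1 in R 4.3.3, two-sided, at an unadjusted p below 0.05 and after Benjamini-Hochberg adjustment. The study's second criterion, a test over replicate probes, was not applied. An exact permutation test of 2 arrays against 2 cannot give a p below 0.333. The number of arrays limits the precision. The test was checked on simulated data.

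The labels give each array an experiment number, which pairs the arrays across treatments, and deviations of arrays with the same number had a correlation of 0.271 over 22638 probes. The members, their roles and the marker and pathway lists were chosen with earlier results of these data known. All members are accounted for. Some genes of the wider pathway list are not reported here. Full values are given for members past the unadjusted threshold, the 5 largest differences per comparison and 4 LXR genes. Alternatives were scaling to the 75th percentile, normexp (offset 50) as background correction, no or a stricter filter, marked spots kept, the deposited table, an intensity trend, a plain t-test, blocks for experiment or treatment, all probes in place of the brightest, and leaving out each array. Probe coordinates are the hg19 positions of the headers, and their place within transcripts was not analysed here.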

Additional observations from a re-analysis of the deposited data

Results flagged for a closer look

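In 17 of the 34 tested genes, miR-511 minus control mimic had opposite signs in experiments 1 and 2. The sign was the same in the other 17, beside 51.0% of all tested probes, so the count is near the share over the array. Each experiment has 1 array per treatment, so none of these differences was tested. The gap between the 2 log2 differences was largest for MVD (0.768) and ABCA1 (0.740), followed by HSD17B7 (0.557), PMVK (0.520), SREBF2 (0.463) and SREBF1 (0.288). MVD and PMVK were higher with miR-511 mimic in experiment 1 and lower in experiment 2, while HSD17B7 and SREBF2 ran the other way. The gap was between 0.1 and 0.25 for HMGCS1 (0.225), SCAP (0.218), STARD4 (0.211), NSDHL (0.196), DHCR7 (0.192), ACLY (0.165), FADS2 (0.116), INSIG1 (0.108) and ACAT2 (0.105). It was smallest for TM7SF2 (0.0951) and MVK (0.0826).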

How the results depend on the processing

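Between treatments, 0 of 40 member probes were called under the 9 alternatives that keep all arrays, the replicate block included. With the experiment number as this block, 894 of all 22638 tested probes passed the unadjusted threshold in place of 498. Leaving out 1 array gave 0 to 1 member probes, the 1 being MVD (-0.54) without miR-511 mimic replicate 1, and it leaves the experiments unequally filled, so that the gap between experiments enters the treatment difference. The group medians between treatments then ranged from -0.144 to 0.190 for sterol synthesis, -0.190 to 0.346 for the machinery, -0.120 to 0.375 for fatty acid genes and -0.103 to 0.386 for the LXR arm. Single genes that changed sign in this way ranged from -0.75 to 1.44 (ABCA1), -0.046 to 0.23 (ABCG1), -0.12 to 0.49 (ACACA), -0.54 to 0.18 (MVD), -0.18 to 0.56 (MYLIP) and -0.021 to 0.21 (NR1H3). The fatty acid median was 0.103 with 75th percentile scaling and 0.064 with normexp.

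Between experiments, 8.46% of all tested probes were called lower (6.51% with the plain t-test, 7.01% with the treatment as a block). Of 41 member probes, 31 were called, all lower. The counts were 20 with the plain t-test and 26 with the treatment as a block, and ranged from 16 to 21 with 1 array left out. The sterol synthesis median was -0.276 with 75th percentile scaling, -0.310 with normexp, -0.295 with marked spots kept and -0.296 from the deposited table. The fatty acid median was -0.424 without a filter and over all tested probes. The LXR median was -0.644 over all tested probes, a set that takes in the second ABCA1 probe. That probe entered only through experiment 1, where it is bright, and only a bound can be given for it. The value of -0.644 is therefore no measure of a larger fall. With 1 array left out, the medians ranged from -0.320 to -0.264 (sterol synthesis), -0.491 to -0.244 (machinery), -0.582 to -0.378 (fatty acid) and -0.540 to -0.358 (LXR). No named gene changed sign between experiments under any alternative, and the cause of the lost calls was not tested. After adjustment over all probes, normexp gave 3 calls and the plain t-test 1, beside 0. Probes near background limit ELOVL6 and the second ABCA1 probe.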
